A study of Homo sapiens with 15 samples.

Results

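Ribosome biogenesis factors are the proteins that make and mature the subunits of the ribosome without being part of the finished particle. The set described here holds 50 genes, chosen by name, of the 21519 genes in the gene count table, and all 50 were found there by their gene identifiers. It comprises 2 RNA polymerase I subunits, 7 core proteins of the small nucleolar ribonucleoproteins (snoRNPs), 16 proteins of early 40S assembly, 8 of late 40S maturation, 14 of 60S assembly and 3 abundant nucleolar proteins. Of the 50 genes, 48 passed the filter on low counts and were tested among 12197 genes. NOP2, a 60S assembly methyltransferase, had 0 counts in all 15 libraries, and EMG1, an early 40S methyltransferase, had 0 to 4, so neither was tested at the gene level. In the splicing table the set had 2435 of 721551 events, in 48 genes, since UTP3 and RRS1 have a single exon.

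HEK-293 is a human embryonic kidney cell line. Cells transfected with the plasmid pcDNA3Xpress-Gemin5 by Lipofectamine LTX, and harvested 24 h later, are called GEMIN5 cells; GEMIN5 is an RNA-binding protein of the SMN complex that also acts in translation. Control cells were untreated, so the GEMIN5 groups differ from the control groups in transfection as well as in GEMIN5. All groups received cycloheximide, which arrests elongating ribosomes, and poly(A) RNA was sequenced from the cytoplasmic lysate (Input) and from pooled fractions 8 to 12 of 12 of a 10 to 50% sucrose gradient (Polysome). The 15 libraries comprise 3 Input GEMIN5, 4 Input control, 4 Polysome GEMIN5 and 4 Polysome control libraries, described by the submitters as independent biological samples.

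A ribosome begins with RNA polymerase I, which transcribes the precursor of most ribosomal RNA in the nucleolus. Guided by small nucleolar RNAs, the H/ACA snoRNPs turn uridines into pseudouridines and the C/D snoRNPs methylate riboses. The small subunit processome then folds and cleaves the 40S part, and separate sets of assembly factors, helicases and GTPases mature the 40S and 60S particles on their way to the cytoplasm. The genes of this pathway are known as growth genes, and many carry the E-box CACGTG that MYC binds in their promoters.

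The libraries held between 11191417 and 18407933 counts. The check of the labels held: GEMIN5 averaged 1428 ± 112 counts per 1000000 counts (CPM) in Input GEMIN5 against 13.9 ± 1.71 CPM in Input control, and 924 ± 187 CPM in Polysome GEMIN5 against 5.80 ± 1.26 CPM in Polysome control (SD, n = 3, 4, 4 and 4). Genes of cytosolic ribosomal proteins took 55.15 to 59.94% of all counts in Input GEMIN5 and 34.1 to 35.29% in Input control, against 19.9 to 24.89% in Polysome GEMIN5 and 19.3 to 24.97% in Polysome control. The 50 biogenesis genes took 0.461 to 0.552% of the counts in Input GEMIN5 against 1.01 to 1.08% in Input control, and 0.811 to 1.00% in Polysome GEMIN5 against 0.781 to 1.22% in Polysome control. CPM values here are scaled by edgeR's trimmed mean of M-values (TMM), apart from the marker sums below and values given with library size only. The TMM factors were 0.354 to 0.488 in Input GEMIN5 against 0.971 to 1.03 in Input control, and 1.34 to 1.53 in Polysome GEMIN5 against 1.27 to 1.55 in Polysome control. Without that scaling the median gene fell by 1.29 (log2) in Input GEMIN5, so a change in Input is a change relative to the other genes. In bulk samples, fewer cells that express a gene and less RNA per cell cannot be told apart.

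The marker sums are CPM by library size only, a scaling under which the median log2 change of all genes in Input GEMIN5 was -1.29. All 5 HEK-293 markers were detected in every group, with summed levels of 187 to 239 CPM in Input GEMIN5, 681 to 891 CPM in Input control, 355 to 539 CPM in Polysome GEMIN5 and 371 to 725 CPM in Polysome control. The 10 liver markers summed to 1.90 to 2.99 CPM in Input GEMIN5, with ALB, SERPINA1, FGA, FGB and FGG at 0, against 0.835 to 87.1 CPM in Input control. In polysomes they summed to 0.732 to 1.75 CPM in GEMIN5 cells, with SERPINA1, TTR, TF and FGA at 0, against 77.6 to 136 CPM in control cells. Blood and immune markers summed to 1.28 to 2.86, 1.45 to 3.51, 1.37 to 1.75 and 6.07 to 10.1 CPM in the same order of the 4 groups, and fibroblast markers to 0.706 to 1.28, 1.73 to 5.09, 1.82 to 3.39 and 3.20 to 7.56 CPM. The part of this RNA in the results was not tested.

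In Input, the biogenesis factors moved apart. In GEMIN5 cells 8 of the 48 tested members were higher and 21 were lower than in control cells, and 19 did not pass the test, against a background of 27.1% of all tested genes higher and 24.3% lower, 51.5% in either direction (edgeR quasi-likelihood test, Benjamini-Hochberg adjusted p under 0.05). The median log2 fold change was -0.27 over the members and -0.01 over all genes. With library size as the only scaling 2 members were higher, NOP10 and NHP2, and 44 were lower, against 605 and 9270 of the 12197 genes. By role, 2 of 13 tested 60S factors were higher and 7 lower (median log2 fold change -0.51), 2 of 15 early 40S factors were higher and 6 lower (median -0.18), and 1 of 8 late 40S factors was higher and 2 were lower (median -0.20). Among the snoRNP core proteins 3 of 7 were higher and 2 lower (median -0.06), all 3 nucleolar proteins were lower (median -0.98), and 1 of 2 RNA polymerase I subunits was lower.

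**Figure D1:**
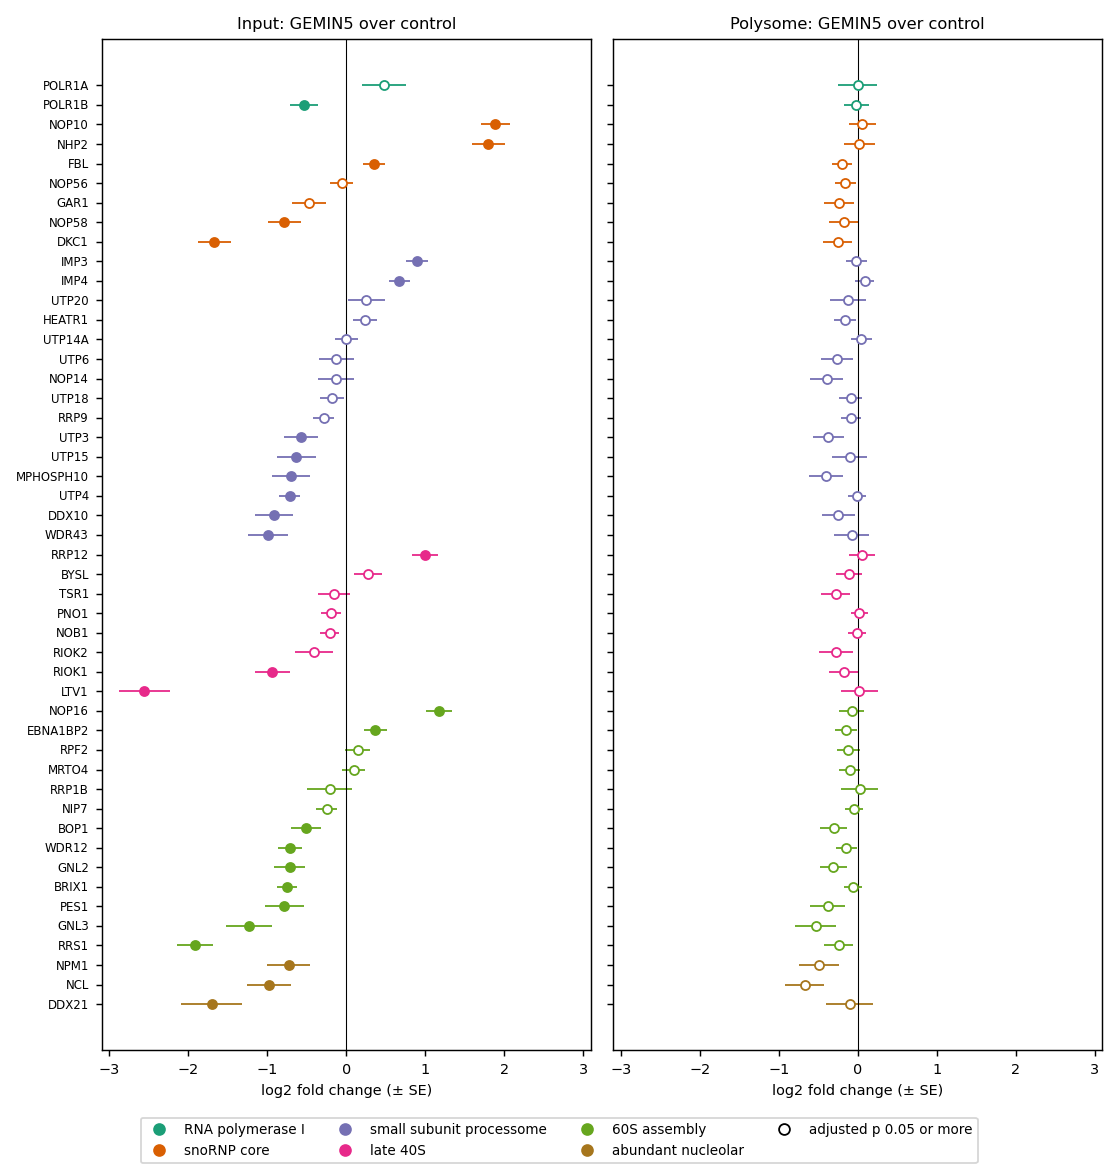
Log2 fold change (GEMIN5 over control, points, ± SE, bars) of the 48 tested members, grouped and coloured by role, in Input on the left and in Polysome on the right; filled points have an edgeR adjusted p under 0.05. In Input the members run from -2.56 (LTV1) to 1.89 (NOP10), and in Polysome from -0.67 (NCL) to 0.09 (IMP4) with no filled point.

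POLR1B, a core subunit of RNA polymerase I (chr2:112541915-112579818, plus strand, GRCh38), had 14.2, 11.3 and 9.58 CPM in Input GEMIN5, against 16.6, 19.0, 15.9 and 16.8 CPM in Input control. The groups did not overlap, with a log2 change of -0.53 ± 0.18 (SE; edgeR adjusted p = 0.0183), and the call was lost without Input GEMIN5 replicate 3 (adjusted p = 0.105) or without Input control replicate 2 (adjusted p = 0.0519), and with offsets that follow transcript length (-0.31, adjusted p = 0.066). POLR1A, the largest subunit, was the lowest tested member per length, at 0.623 ± 0.185 CPM per kb of transcript in Input GEMIN5 against 0.449 ± 0.0608 CPM per kb in Input control (SD, n = 3 and 4). Its log2 change of 0.48 ± 0.28 (SE) did not pass the test (edgeR adjusted p = 0.159).

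Proteins of the H/ACA snoRNP moved in both directions. NOP10, a small H/ACA subunit that contacts the catalytic protein (chr15:34339159-34343180, minus strand, a transcript of 554 nt), had 847, 1197 and 1071 CPM in Input GEMIN5, against 275, 293, 295 and 260.4 CPM in Input control. All 3 GEMIN5 libraries were above all 4 control libraries, with a log2 change of 1.89 ± 0.19 (SE; edgeR adjusted p = 1.38e-07). NHP2, which binds the H/ACA RNA (chr5:178149463-178153894, minus strand, 865 nt), had 2894, 4092 and 3649 CPM in Input GEMIN5, against 1003, 1082, 1038 and 947 CPM in Input control. It too was higher in every GEMIN5 library (log2 fold change 1.80 ± 0.21 SE, edgeR adjusted p = 9.76e-07), and at 4098 ± 700.1 CPM per kb (SD, n = 3) it was the highest member per length in that group. DKC1, the pseudouridine synthase dyskerin of the same particle (chrX:154762742-154777689, plus strand, 2577 nt), had 45.0, 31.3 and 40.6 CPM in Input GEMIN5, against 123, 130.3, 122 and 122 CPM in Input control. All 3 GEMIN5 libraries lay below all control libraries (log2 fold change -1.67 ± 0.21 SE, edgeR adjusted p = 3.04e-06). GAR1, the remaining core protein (chr4:109815510-109824740, plus strand), had 75.6, 54.2 and 56.4 CPM in Input GEMIN5 against 87.1, 94.8, 82.0 and 81.0 CPM in Input control. Its groups did not overlap, but the log2 change of -0.47 ± 0.21 (SE) did not pass the test (edgeR adjusted p = 0.0692). With offsets that follow transcript length NOP10 was not called, at -0.0135 (edgeR adjusted p = 0.91). NHP2 then stood at 0.51 and DKC1 at -1.49.

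Of the C/D snoRNP proteins, NOP58 (chr2:202265736-202303661, plus strand) had 73.8, 59.1 and 60.8 CPM in Input GEMIN5 and 106, 125, 111 and 103 CPM in Input control. It fell in GEMIN5 cells, by 0.78 ± 0.21 on the log2 scale (SE; edgeR adjusted p = 0.00392). NOP56, its partner in the same particle (chr20:2652593-2658393, plus strand), had 539, 668 and 554 CPM in Input GEMIN5 and 604, 655, 618 and 569 CPM in Input control. These groups overlapped, with a log2 change of -0.06 ± 0.14 (SE; edgeR adjusted p = 0.758). FBL, the methyltransferase fibrillarin, had 1112, 1457 and 1376 CPM in Input GEMIN5 against 1021, 1070.1, 1022 and 996 CPM in Input control, and rose by 0.36 ± 0.14 (log2, SE; edgeR adjusted p = 0.0384), but with library size as the only scaling it was lower, at 525 ± 15.9 CPM in Input GEMIN5 against 1016 ± 19.9 CPM in Input control (SD, n = 3 and 4). FBL was not called with offsets that follow transcript length or without Input GEMIN5 replicate 2.

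**Figure D2:**
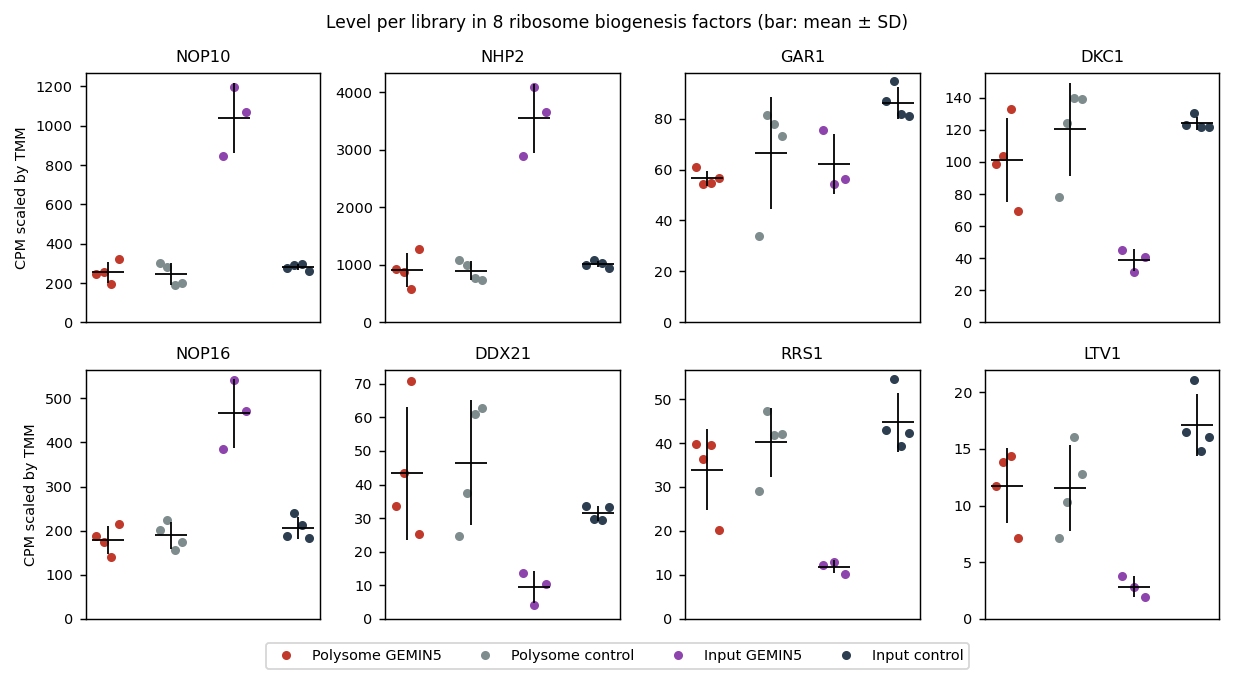
Level (TMM-scaled CPM, y axis) of NOP10, NHP2, GAR1, DKC1, NOP16, DDX21, RRS1 and LTV1 in each of the 15 libraries (points) with the group mean and SD (bars). NOP10, NHP2 and NOP16 are highest in the 3 Input GEMIN5 libraries, while DKC1, RRS1 and LTV1 are lowest there, and the Polysome GEMIN5 and Polysome control libraries overlap in each panel.

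In early 40S assembly, IMP3 and IMP4, which work with the U3 small nucleolar RNA in the processome, were the 2 higher members. IMP3 (chr15:75639085-75648706, minus strand) had 278, 320.4 and 339 CPM in Input GEMIN5 against 168, 177, 162 and 165 CPM in Input control, a log2 change of 0.90 ± 0.14 (SE; edgeR adjusted p = 3.55e-05). IMP4 (chr2:130342877-130347967, plus strand) had 155, 212 and 208 CPM in Input GEMIN5 against 122, 125, 116 and 118 CPM in Input control, a log2 change of 0.67 ± 0.13 (SE; edgeR adjusted p = 0.000315). Neither gene's groups overlapped, but both were lower with library size as the only scaling, at -0.40 and -0.64, and without Input GEMIN5 replicate 2 the IMP4 change was 0.36 (adjusted p = 0.121). Their known partner MPHOSPH10 went the other way, at -0.70 ± 0.24 (log2, SE; edgeR adjusted p = 0.021). WDR43, a member of the processome's first-binding subcomplex (chr2:28894667-28948219, plus strand), had 25.2, 19.7 and 20.2 CPM in Input GEMIN5 against 40.6, 47.1, 40.8 and 44.3 CPM in Input control (log2 fold change -0.99 ± 0.25 SE, edgeR adjusted p = 0.0028). The helicase DDX10 (chr11:108665058-108940999, plus strand) had 14.6, 12.6 and 12.7 CPM in Input GEMIN5 against 27.0, 25.4, 24.3 and 24.0 CPM in Input control (log2 fold change -0.92 ± 0.24 SE, edgeR adjusted p = 0.00319). For WDR43 and DDX10 all GEMIN5 libraries lay below all control libraries. UTP3, UTP4 and UTP15 were also lower (log2 changes of -0.57, -0.72 and -0.63), and HEATR1, NOP14, RRP9, UTP6, UTP14A, UTP18 and UTP20 were not called, between -0.29 and 0.25.

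Late 40S maturation had 1 higher and 2 lower members. LTV1, a factor released from the 40S precursor in the cytoplasm (chr6:143843338-143863812, plus strand), had 3.78, 2.78 and 1.95 CPM in Input GEMIN5 against 16.5, 21.1, 14.8 and 16.0 CPM in Input control. The log2 fold change was -2.56 ± 0.32 (SE; edgeR adjusted p = 2.29e-06), from 13 to 34 counts per GEMIN5 library against 214 to 367 per control library. These counts may leave out reads at its 5' and 3' ends, as described with its exons. RIOK1, an atypical kinase of the last cytoplasmic steps (chr6:7389793-7418037, plus strand), had 27.4, 24.6 and 29.6 CPM in Input GEMIN5 against 49.1, 56.1, 54.5 and 48.3 CPM in Input control. It fell by 0.93 ± 0.22 on the log2 scale (SE; edgeR adjusted p = 0.00149). RRP12, known in yeast for the nuclear export of both subunits (chr10:97356358-97426076, minus strand), had 21.9, 24.7 and 23.5 CPM in Input GEMIN5 against 10.2, 12.7, 11.0 and 12.9 CPM in Input control. It was the one higher member here, at 1.00 ± 0.16 (log2, SE; edgeR adjusted p = 4.77e-05), and stood at -0.30 with library size as the only scaling. BYSL, NOB1, PNO1, RIOK2 and TSR1 were not called, with log2 fold changes between -0.41 and 0.27.

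Among the 60S factors, RRS1, which works with RPF2 in installing the 5S RNA particle (chr8:66429014-66430733, plus strand), had 12.4, 12.9 and 10.2 CPM in Input GEMIN5 against 43.0, 54.5, 39.3 and 42.2 CPM in Input control. It fell by 1.92 ± 0.23 on the log2 scale (SE; edgeR adjusted p = 1.18e-06), while RPF2 itself was not called, at 0.15 ± 0.16. RRS1 is overlapped on the same strand by ENSG00000285655, so its gene count may leave out reads. GNL3, the nucleolar GTPase nucleostemin (chr3:52681156-52694497, plus strand), had 115, 88.8 and 69.2 CPM in Input GEMIN5 against 211, 217, 224 and 207 CPM in Input control (log2 fold change -1.24 ± 0.29 SE, edgeR adjusted p = 0.00147). In both genes the groups were fully separate. PES1, BOP1 and WDR12, which form the PeBoW complex of 60S assembly, were lower together, at -0.78 ± 0.25, -0.51 ± 0.19 and -0.71 ± 0.15 (log2, SE; edgeR adjusted p = 0.0131, 0.03 and 0.00065). NOP16 (chr5:176383946-176388927, minus strand, 1258 nt) was higher in every GEMIN5 library, with 384, 542 and 471 CPM in Input GEMIN5 against 187, 239, 213 and 184 CPM in Input control. Its log2 fold change was 1.18 ± 0.16 (SE; edgeR adjusted p = 8.34e-06), -0.14 with library size as the only scaling and 0.49 with offsets that follow transcript length. EBNA1BP2 (chr1:43164175-43270936, minus strand) had 407, 491 and 521 CPM in Input GEMIN5 against 362, 418, 341 and 343 CPM in Input control. These groups overlapped, and the call at 0.37 ± 0.15 (log2, SE; edgeR adjusted p = 0.0433) was lost under several other settings and stood at -0.94 with library size as the only scaling.

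The abundant nucleolar proteins were all lower. DDX21, a helicase that links RNA polymerase I transcription and processing (chr10:68956135-68985068, plus strand), had 13.7, 4.26 and 10.3 CPM in Input GEMIN5 against 33.5, 29.7, 29.5 and 33.4 CPM in Input control, a log2 change of -1.71 ± 0.38 (SE; edgeR adjusted p = 0.000989). NCL, nucleolin (chr2:231453531-231483641, minus strand), had 258, 251 and 220.1 CPM in Input GEMIN5 against 462, 532, 459.5 and 464 CPM in Input control, a log2 change of -0.98 ± 0.27 (SE; edgeR adjusted p = 0.00569). NPM1, the nucleolar chaperone nucleophosmin (chr5:171387116-171411810, plus strand), had 2366, 1897 and 2068 CPM in Input GEMIN5 against 3558, 3635, 3563 and 3249 CPM in Input control, a log2 change of -0.73 ± 0.27 (SE; edgeR adjusted p = 0.0324). None of the 3 genes overlapped between the groups. How many of all genes are separated in this way was not counted, for these or the other members, and 51.5% of all tested genes were called in Input. NPM1 was the highest member per length in Input control, at 1992 ± 97.8 CPM per kb (SD, n = 4), against 1200.5 ± 135 CPM per kb in Input GEMIN5 (SD, n = 3). It has 45 annotated pseudogenes, none of them in the count table, so reads shared with them may be missing from its counts.

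The Input change of most measured members varied along the transcript. For each gene with enough spliced reads, the log2 ratio of reads across its 3'-most over its 5'-most intron was taken in each library. The median over 33 members was 2.40 ± 0.14 in Input GEMIN5 against 0.88 ± 0.07 in Input control (SD, n = 3 and 4; ranges 2.25 to 2.52 and 0.77 to 0.95). The groups did not overlap, and the difference of 1.52 had the smallest p that 3 against 4 libraries can give (exact two-sided permutation test, p = 0.0571). Over all 4369 genes measured the same way the median was 1.09 ± 0.07 in Input GEMIN5 against 0.60 ± 0.05 in Input control. In polysomes the members' median was 1.03 ± 0.15 in GEMIN5 cells against 1.13 ± 0.31 in control cells (SD, n = 4 each), a difference of -0.10 (exact two-sided permutation test, p = 0.543).

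In 25 of the 33 members every Input GEMIN5 library had a higher ratio than every Input control library, a share of 75.8%, against 39.1% of all genes measured. In polysomes this held for 0 of 33 members, against 0.938% of all genes. The ratio was 5.96 ± 0.79 for NCL in Input GEMIN5 against 1.04 ± 0.15 in Input control, and 5.29 ± 0.30 for UTP4 in Input GEMIN5 against 1.40 ± 0.70 in Input control (log2; SD, n = 3 and 4). NOP16, NIP7, NOP56 and NHP2 differed by 0.04 or less. Grouped by distance from the transcript's 3' end, the median log2 ratio of reads (GEMIN5 over control, Input) across the members' junctions was 0.59 within 500 nt, -0.64 from 500 to 1000 nt, -1.66 from 1000 to 2000 nt, -2.02 from 2000 to 4000 nt and -1.55 beyond 4000 nt. The last bin holds 18 junctions. Over all genes the same medians were 0.93, 0.09, -0.88, -1.05 and -0.64, and in Polysome the members' medians lay between -0.21 and -0.08.

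**Figure D3:**
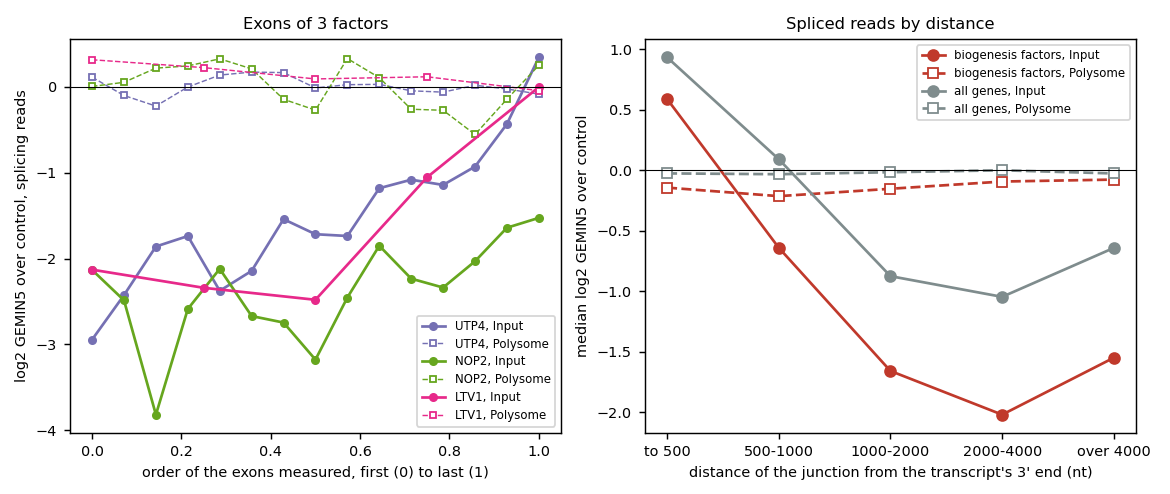
Left, log2 ratio of spliced reads (GEMIN5 over control) of the exons of UTP4, NOP2 and LTV1 in 5' to 3' order, Input solid and Polysome dashed; right, the median log2 ratio of junctions by distance from the 3' end (nt) for the members and for all genes. In Input UTP4 runs from -2.94 at its first measured exon to 0.34 at its last, while its Polysome values stay between -0.22 and 0.17.

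UTP4, which belongs with WDR43 to the first-binding subcomplex of the processome, shows the gradient exon by exon (chosen after its values were seen). Its first measured exon (chr16:69133458-69133618, plus strand) had 0.594 ± 0.287 spliced reads per 1000000 counts (RPM) in Input GEMIN5 against 4.57 ± 1.00 in Input control, from 2 to 6 reads per library against 40 to 89. Its last measured exon (chr16:69167075-69167185) had 12.0 ± 2.45 RPM in Input GEMIN5 against 9.42 ± 1.65 in Input control (SD, n = 3 and 4). Of its 15 measured exons 14 were lower in Input GEMIN5. SNTB2 overlaps the annotated span of UTP4 on the same strand from chr16:69187147 on, beyond all 15 measured exons. Reads from that part may be missing from the gene count of UTP4. In LTV1 the exon at chr6:143844486-143844617 had 3.21 ± 0.865 RPM in Input GEMIN5 against 14.0 ± 1.28 in Input control, while the last measured exon at chr6:143863086-143863286 had 26.3 ± 1.87 against 26.3 ± 1.58. The last 2 measured LTV1 exons are overlapped on the same strand by the gene ENSG00000280148, and the use of strand and of overlaps in the authors' counting is not given in the sources used here, so the gene count of LTV1 may leave out its 3' end.

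The same table gives values for the untested members NOP2 and EMG1, both overlapped on the same strand by another annotated gene. NOP2 (chr12:6556863-6568691, minus strand) had 7.34 ± 1.09 RPM of spliced reads over its introns in Input GEMIN5 against 26.9 ± 2.74 in Input control, a log2 ratio of -1.87. All 15 of its measured exons were lower in Input GEMIN5, between -3.82 and -1.53 (log2). They had at most 17 reads in an Input GEMIN5 library, and the exon at -3.82 had 0 to 3 there against 27 to 61 per Input control library. Neighbouring exons can share spliced reads, so the exons are not separate observations. In polysomes NOP2 had 9.36 ± 2.92 RPM in GEMIN5 cells against 9.79 ± 2.88 in control cells. EMG1 is given here by a single event, at chr12:6975229-6975378. It had 61.1 ± 7.12 RPM in Input GEMIN5 against 25.8 ± 1.30 in Input control (log2 ratio 1.25), and 23.9 ± 4.11 in Polysome GEMIN5 against 23.9 ± 4.59 in Polysome control. Since Input changes varied along the transcripts, this event does not stand for the whole gene.

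The members were also described by transcript length. Of the 6 tested members with transcripts up to 1500 nt, 5 were higher and 0 lower in Input GEMIN5, with a median log2 change of 0.77. Of 24 members from 1500 to 2500 nt, 2 were higher and 12 lower (median -0.40), of 7 from 2500 to 4000 nt 0 were higher and 5 lower (median -0.92), and of 11 above 4000 nt 1 was higher and 4 lower (median -0.15). All tested genes followed a similar order, with medians of 0.97, -0.01, -0.25 and -0.08 over 1547, 2874, 3247 and 4505 genes. Of these genes 1073 were higher and 85 lower in the shortest bin, 825 and 756 in the next, 557 and 1148 from 2500 to 4000 nt, and 839 and 979 above 4000 nt. Spearman's rho between length and log2 fold change was -0.17 over the 48 members and -0.20 over 12173 genes, given as a description across genes. With an offset that follows transcript length within each library, the NOP10 change in Input was -0.0135, the NHP2 change was 0.51 (edgeR adjusted p = 0.000503), and DKC1, RRS1 and LTV1 stayed lower at -1.49, -2.11 and -2.65. The NOP16 change in Input was then 0.49, and the differences of NOP16 and NHP2 between Polysome and Input were -0.59 and -0.54.

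In polysomes no member passed the test between GEMIN5 and control cells. Of 48 members 0 were higher and 0 lower, against a background of 0.082% of all genes higher and 0.32% lower, 0.402% in either direction; NCL alone had an unadjusted p under 0.05, and DESeq2 also called 0. The log2 fold changes ran from -0.67 (NCL) to 0.09 (IMP4), with a median of -0.12. NOP10 had 248, 254, 193 and 322 CPM in Polysome GEMIN5 against 303, 284, 192 and 201 CPM in Polysome control. DKC1 had 98.7, 104, 133 and 69.3 CPM in Polysome GEMIN5 against 78.1, 125, 139.7 and 139 CPM in Polysome control. Both genes overlapped between the groups. The count rested on Polysome control replicate 1, the polysome library with the lowest share of counts in the set: without it NCL, NPM1 and GNL3 were lower in GEMIN5 polysomes, at -0.91, -0.76 and -0.79 (log2; edgeR adjusted p = 0.0287, 0.0287 and 0.0402), beside 72 of 12149 genes lower. NPM1 had 1824, 1659, 1841 and 1197 CPM in Polysome GEMIN5 against 892, 2706, 2777 and 2779 CPM in Polysome control, where 3 of 4 control libraries lay above all GEMIN5 libraries and replicate 1 below them.

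Between Polysome and Input, with TMM scaling, more members were lower than higher in Polysome in both kinds of cell. In GEMIN5 cells the lower share of 39.6% was near the 35% of all genes. In GEMIN5 cells 9 of 48 were higher in Polysome and 19 lower (background 32.6% higher, 35% lower, 67.6% in either direction; median log2 -0.37). In control cells 2 were higher, RRP1B and PNO1, and 21 lower (background 24.1% and 19.1%, 43.2% in either direction; median -0.41). With library size as the only scaling, 41 members were higher and 2 lower in GEMIN5 cells, against 10310 and 465 of 12197 genes. In control cells 10 were then higher and 6 lower, against 6492 and 560 genes. With TMM scaling NOP56 had the lowest ratio in both kinds of cell: 94.4, 95.5, 114 and 86.1 CPM in Polysome GEMIN5 against 539, 668 and 554 CPM in Input GEMIN5, and 84.0, 109.6, 124 and 117 CPM in Polysome control against 604, 655, 618 and 569 CPM in Input control. Its log2 fold changes were -2.59 ± 0.15 and -2.49 ± 0.14 (SE; edgeR adjusted p = 9.98e-11 and 7.41e-10). The NOP56 gene is known to host small nucleolar RNAs in its introns.

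RRP12 had 4.75, 3.99, 4.65 and 3.85 CPM in Polysome GEMIN5 and 2.92, 4.73, 4.00 and 4.93 CPM in Polysome control, below every Input library of its own cells (log2 fold changes -2.44 ± 0.17 in GEMIN5 cells and -1.49 ± 0.16 in control cells, SE; edgeR adjusted p = 7.66e-10 and 1.15e-06). UTP20, a very large processome protein (chr12:101280105-101386618, plus strand), had 2.16, 4.20, 3.64 and 3.16 CPM in Polysome control against 6.63, 9.87, 7.31 and 7.98 CPM in Input control (log2 fold change -1.26 ± 0.22 SE, edgeR adjusted p = 0.000146). RRP1B, a nucleolar protein of 60S assembly (chr21:43659560-43696079, plus strand), was higher in Polysome in both kinds of cell. It had 59.5, 48.4, 68.1 and 23.1 CPM in Polysome GEMIN5 against 12.7, 12.6 and 12.3 CPM in Input GEMIN5, and 34.4, 43.9, 56.9 and 60.7 CPM in Polysome control against 12.6, 16.9, 14.1 and 14.1 CPM in Input control (log2 fold changes 1.99 ± 0.29 and 1.76 ± 0.24 SE, edgeR adjusted p = 5.55e-06 and 1.64e-05). PNO1, a partner of the 18S endonuclease NOB1 (chr2:68157888-68176238, plus strand), had 86.0, 106, 78.7 and 82.8 CPM in Polysome control against 68.6, 71.2, 61.1 and 62.2 CPM in Input control, a rise of 0.43 ± 0.11 (log2, SE; edgeR adjusted p = 0.00474). In GEMIN5 cells PNO1 was also higher in Polysome, by 0.64 ± 0.12 (log2, SE; edgeR adjusted p = 0.000157), and DDX21 and LTV1 were highest of the members called there, at 2.17 and 2.02. NOB1 itself was lower in Polysome control, at -0.63 ± 0.11 (edgeR adjusted p = 0.000155).

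**Figure D4:**
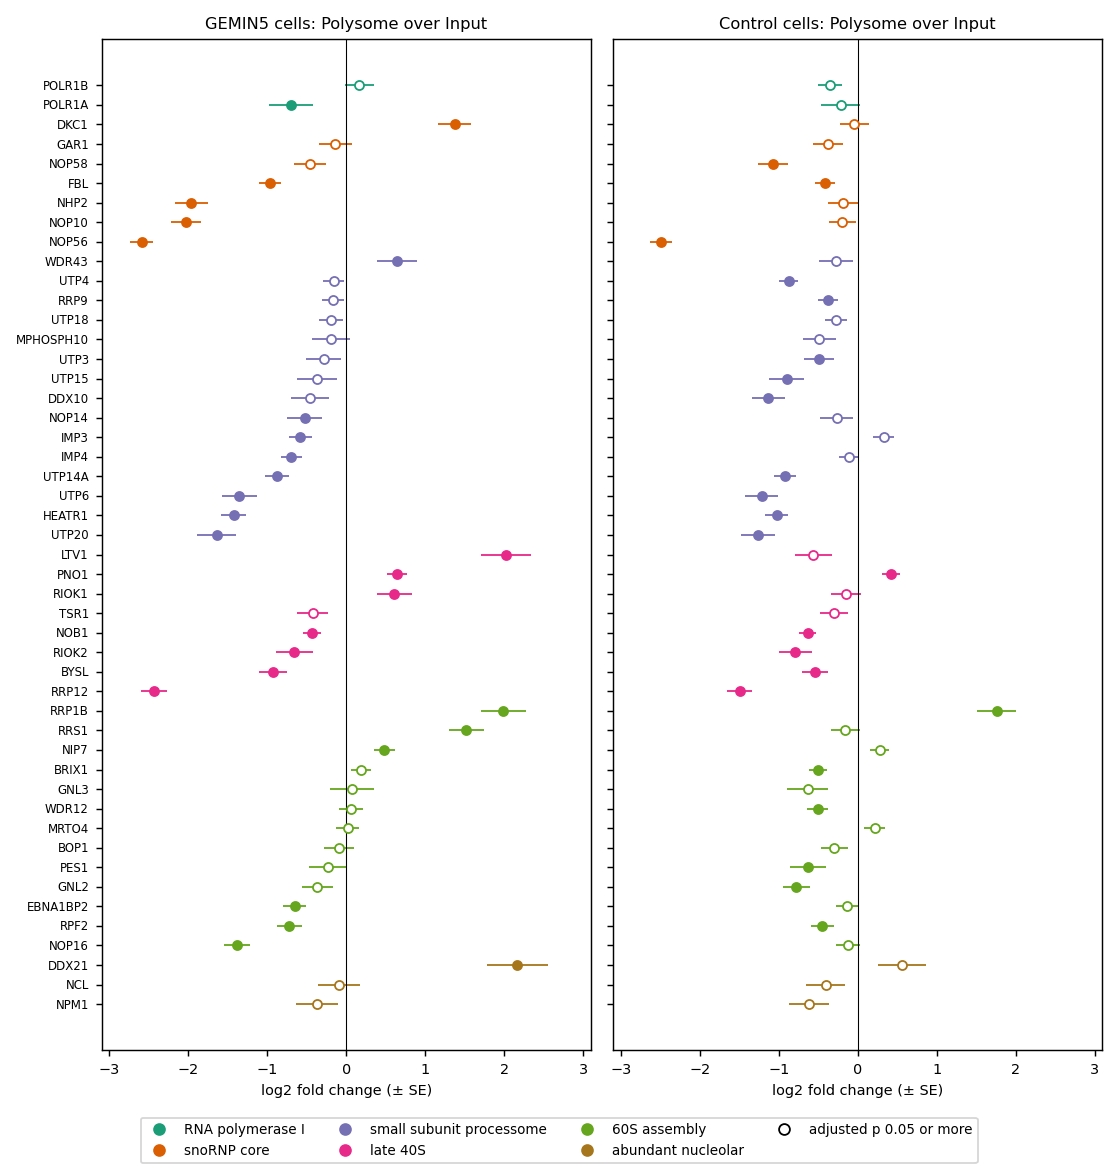
Log2 fold change (Polysome over Input, points, ± SE, bars) of the 48 tested members, grouped and coloured by role, in GEMIN5 cells on the left and control cells on the right; filled points have an edgeR adjusted p under 0.05. NOP56 is lowest in both panels (-2.59 and -2.49), while LTV1, DDX21 and RRS1 are filled and to the right of 0 in GEMIN5 cells only, a difference between the cells that the text gives with its test.

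The difference between these ratios (GEMIN5 cells minus control cells) was tested directly. It was higher for 9 members and lower for 7, against a background of 16.9% higher and 20.5% lower, 37.3% in either direction, with a median of 0.20. LTV1 had 11.7, 13.9, 14.4 and 7.15 CPM in Polysome GEMIN5 and 7.11, 10.3, 16.1 and 12.8 CPM in Polysome control, so its difference of 2.58 ± 0.40 (log2, SE; edgeR adjusted p = 5.87e-05) stood beside its low Input GEMIN5 level. RRS1 had 39.7, 36.3, 39.5 and 20.3 CPM in Polysome GEMIN5 against 29.1, 47.4, 41.9 and 42.1 CPM in Polysome control (difference 1.68 ± 0.29 SE, edgeR adjusted p = 0.000178). DDX21 had 33.7, 43.3, 70.9 and 25.4 CPM in Polysome GEMIN5 against 24.8, 37.4, 61.1 and 62.9 CPM in Polysome control (difference 1.60 ± 0.48 SE, edgeR adjusted p = 0.0137, and 0.056 with no filter on low counts). In the other direction NOP10, NHP2 and NOP16 had differences of -1.83 ± 0.25, -1.78 ± 0.29 and -1.25 ± 0.23 (log2, SE; edgeR adjusted p = 2.04e-05, 8.98e-05 and 0.000255). NHP2 had 932, 868, 572 and 1272 CPM in Polysome GEMIN5 against 1080.2, 991, 777 and 737 CPM in Polysome control, and NOP16 had 187, 173, 141 and 216 CPM against 201, 225, 157 and 174 CPM. For these 6 genes the polysome groups overlapped and the Input groups did not. The 6 genes were chosen by the size of the difference, which contains the Input change, so this pattern is no separate evidence. How many of all genes show it was not counted. The comparisons share libraries, so the difference is not independent of the Input result.

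Splicing was read as the percent spliced in (PSI), the share of reads that include an exon or an intron, or that use a given splice site. Among alternative splice sites each site has its own PSI, for the shorter as well as the longer form. In Input 18 of 64 member events differed between GEMIN5 and control cells, 5 with higher and 13 with lower PSI (background 11.3% of 11930 events; limma adjusted p under 0.05), while a test that adds no reads called 3 (background 5.53%). In polysomes 0 of 67 events differed between GEMIN5 and control cells (background 0%; 4 had an unadjusted p under 0.05, and the test that adds no reads also called 0, background 0.0114%). Polysome differed from Input for 21 of 65 events in GEMIN5 cells (background 12.9%; 4 by the test that adds no reads, background 6.95%) and for 0 of 53 in control cells (background 0.0559%; 3 with an unadjusted p under 0.05). The sites of 1 splice choice are separate events whose PSI can mirror each other, so these counts are not of independent events. Mirrored calls included RRP9 sites in Input (4.65 and -4.65 points) and IMP4 sites in Polysome against Input of GEMIN5 cells (19.0 and -19.0). The called events with the largest PSI differences lay at the start codons of GAR1 (Input) and IMP4 (Polysome against Input of GEMIN5 cells). Both reference sequences (GENCODE 29, GRCh38, coding strand) are shown for what each event adds or removes. For GAR1 the capitals mark the start codon within the coding part of the skipped exon (chr4:109816165-109816231, plus strand), and for IMP4 they mark the start codon followed by the first donor GT, then the second donor GT and the acceptor AG (chr2:130342933-130343085, plus strand).
GAR1: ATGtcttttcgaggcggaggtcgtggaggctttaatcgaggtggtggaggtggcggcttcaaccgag
IMP4: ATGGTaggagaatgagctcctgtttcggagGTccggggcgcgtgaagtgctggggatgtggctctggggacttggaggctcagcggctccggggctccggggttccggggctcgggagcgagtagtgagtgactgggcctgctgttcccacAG

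The GAR1 exon of 79 nt (chr4:109816153-109816231) carries the annotated start codon. Its PSI was 33.0, 29.6 and 57.8% in Input GEMIN5 against 82.9, 83.2, 80.1 and 83.5% in Input control, with no overlap. The mean was 40.2 ± 15.4% against 82.4 ± 1.58% (SD, n = 3 and 4), a difference of -42.2 points (limma adjusted p = 0.00722, and 0.0122 by the test that adds no reads). The values rest on 11 to 43 reads per Input GEMIN5 library and 104 to 159 per Input control library. In polysomes the exon had 76.1, 67.3, 55.8 and 63.3% in GEMIN5 cells against 41.7, 73.7, 82.7 and 80.6% in control cells, and the groups overlapped.

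The IMP4 intron after the start codon (chr2:130342936-130343085, 150 nt) had a PSI of 5.38, 7.39, 10.0 and 9.26% in Polysome GEMIN5 against 20, 22.9 and 21.4% in Input GEMIN5. The mean was 8.01 ± 2.07% against 21.5 ± 1.46% (SD, n = 4 and 3), a difference of -13.4 points (limma adjusted p = 0.00608). In control cells it was 7.21 ± 2.40% in Polysome against 14.3 ± 2.03% in Input (SD, n = 4 each), which did not pass the test across all events. The second donor of the same intron lengthens the first exon by 27 nt, which hold 9 codons in the reading frame, 1 of them a stop codon. Its PSI was 16.7, 14.0, 18.4 and 25.6% in Polysome GEMIN5 against 46.2, 31.5 and 35.4% in Input GEMIN5, a difference of -19.0 points (limma adjusted p = 0.0243). That call was lost in 5 of 7 fits without one library, with adjusted p up to 0.094. In control cells its mean was 21.0 ± 4.26% in Polysome against 23.6 ± 7.61% in Input (SD, n = 4 each).

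**Figure D5:**
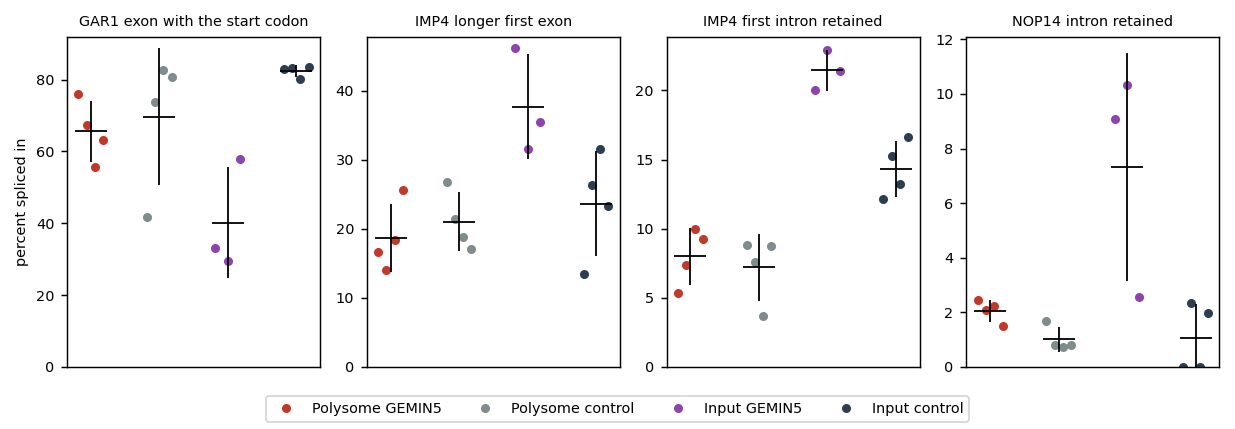
Percent spliced in (y axis) of the GAR1 exon with the start codon, the longer IMP4 first exon, the first IMP4 intron and a NOP14 intron in each library (points) with the group mean (horizontal lines) and SD (vertical lines). The GAR1 exon is at 29.6 to 57.8% in Input GEMIN5 and 80.1 to 83.5% in Input control, and the IMP4 intron is at 5.38 to 10.0% in Polysome GEMIN5 and 20 to 22.9% in Input GEMIN5.

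The other called events were smaller. A NOP14 intron of 462 nt (chr4:2941730-2942191) had a PSI of 9.09, 10.3 and 2.56% in Input GEMIN5 against a mean of 1.07 ± 1.25% in Input control (SD, n = 4; limma adjusted p = 0.0099), on 16 to 20 reads against 36 to 52. A BOP1 exon had 92.5 ± 5.31% in Input GEMIN5 against 99.8 ± 0.390% in Input control, and a NOP56 exon (chr20:2655595-2655746) had 93.4 ± 2.38% against 98.7 ± 0.897% (SD, n = 3 and 4; limma adjusted p = 0.001 and 0.0383). BYSL and NOP58 exons averaged 92.8 ± 7.15 and 95.1 ± 8.56% in Input GEMIN5 against 100% in every Input control library and 99.8 ± 0.365%. The BOP1 call held in 6 of 6 fits without one library and on the scale that adds no reads (limma adjusted p = 0.00396). In Polysome against Input of GEMIN5 cells the BOP1 exon was 7.45 points higher. That call too held in 6 of 6 such fits and on that scale (limma adjusted p = 0.00181). The NOP56 call held in 1 of 7 fits without one library and was lost on the scale that adds no reads (adjusted p = 0.0726). The NOP58 call held in 2 of 6 such fits and rests on 1 library at 85.2%, with the other 2 Input GEMIN5 libraries at 100%. On the scale that adds no reads NOP58 and BYSL were not called (adjusted p = 0.415 and 0.145). In Input the named events of RRP9, UTP14A and BRIX1 moved by 1.80 to 4.65 points. They were at exactly 0 or 100% in at least 1 Input GEMIN5 library. Polysome against Input of GEMIN5 cells had further calls. A DKC1 exon and the NOP56 and NOP58 exons differed by 10.1, 5.04 and 4.94 points, and the NOP14 intron by -5.27. Donor sites of MRTO4 differed by 4.95 and -4.95 and of RRP9 by -4.76 and -1.90. On the scale that adds no reads these calls were lost (limma adjusted p from 0.0563 to 0.353). The DKC1 call held in 3 of 7 fits without one library, NOP14 in 1 of 7 and the smaller RRP9 change in 6 of 6. The test adds 0.5 to each read number, so its log odds at 0 or 100% move with read depth, and the events named for Input rest on fewer reads in Input GEMIN5 than in Input control.

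Promoter sequence was available for 43 of the 50 members (RefSeq, GRCh38.p14; 250 bases before to 50 after each start, with 1 or more starts per gene). The E-box CACGTG, which reads the same on both strands, was found in 21 of the 43, or 48.8%, against 8.78% of 27305 genes in the table and 12.7% of the 9862 tested genes with a promoter. It was present in 6 of 10 matched 60S factors, 8 of 15 early 40S factors, 3 of 7 late 40S factors, 3 of 6 snoRNP proteins, 1 of 3 nucleolar proteins and 0 of 2 RNA polymerase I subunits. It was held by 4 of the 7 matched members that were higher in Input GEMIN5 and by 7 of the 17 that were lower. A gene was counted if any of its starts had a match. A match describes the sequence and is not a binding site. Promoters of 2 members that were higher (NOP10 and IMP4) and 2 that were lower (DDX21 and GNL3) in Input GEMIN5 are printed 5' to 3' on the gene's strand with the E-box in capitals, to show the element on both sides: NOP10 at chr15:34343087-34343386 (minus strand), IMP4 at chr2:130342647-130342946, DDX21 at chr10:68956397-68956696 and GNL3 at chr3:52685782-52686081 (plus strand), the last 2 from the second of their listed starts.
NOP10: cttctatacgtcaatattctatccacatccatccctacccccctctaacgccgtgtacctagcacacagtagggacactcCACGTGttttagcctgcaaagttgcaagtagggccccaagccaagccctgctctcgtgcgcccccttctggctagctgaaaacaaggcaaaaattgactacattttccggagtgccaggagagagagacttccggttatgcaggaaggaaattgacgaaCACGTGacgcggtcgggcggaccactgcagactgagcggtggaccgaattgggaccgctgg
IMP4: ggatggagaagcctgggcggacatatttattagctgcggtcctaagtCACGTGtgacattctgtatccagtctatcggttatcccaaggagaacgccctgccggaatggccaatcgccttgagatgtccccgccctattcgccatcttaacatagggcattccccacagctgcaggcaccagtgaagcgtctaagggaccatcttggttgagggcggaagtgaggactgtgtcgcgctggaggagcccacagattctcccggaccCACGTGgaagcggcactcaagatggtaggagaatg
DDX21: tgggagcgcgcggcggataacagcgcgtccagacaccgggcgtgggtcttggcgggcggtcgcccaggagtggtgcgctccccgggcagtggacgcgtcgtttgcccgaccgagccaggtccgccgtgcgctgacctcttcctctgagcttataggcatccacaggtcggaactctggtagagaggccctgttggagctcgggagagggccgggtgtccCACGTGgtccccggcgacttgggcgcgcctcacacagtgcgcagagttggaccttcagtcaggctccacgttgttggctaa
GNL3: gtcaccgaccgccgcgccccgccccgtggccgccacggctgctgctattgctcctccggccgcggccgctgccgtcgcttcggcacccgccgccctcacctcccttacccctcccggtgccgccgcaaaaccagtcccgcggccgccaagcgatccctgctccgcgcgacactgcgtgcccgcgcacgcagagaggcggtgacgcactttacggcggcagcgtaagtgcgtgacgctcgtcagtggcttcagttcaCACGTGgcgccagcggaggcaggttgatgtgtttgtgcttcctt

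In the NOP10 window the E-box begins at bases 81 and 240, in IMP4 at bases 48 and 266, in DDX21 at base 220 and in GNL3 at base 257, where the first 250 bases precede the start. The IMP4 window ends within the sequence printed for its first intron. The windows of the first listed start of DDX21 and GNL3 and of the second of IMP4, not printed, had 0 matches.

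Of 118 further ribosome biogenesis factors listed from textbook knowledge, 114 were tested, and 19 were higher and 41 lower in Input GEMIN5 (all tested genes 27.1% and 24.3%), with a median log2 change of -0.30. The highest were the RNA polymerase subunit POLR1D at 1.87, SNU13, which binds C/D RNAs, at 1.85 and TRMT112, a methyltransferase cofactor, at 1.51 (edgeR adjusted p = 4.8e-08, 1.45e-07 and 4.66e-07). The lowest were the 60S factor NOC2L at -1.69, the protease SENP3 at -1.65 and the 60S export adaptor NMD3 at -1.52 (edgeR adjusted p = 0.000102, 2.55e-05 and 0.00059). In polysomes 0 of the 114 passed the test between GEMIN5 and control cells (all genes 0.402%), with 6 at an unadjusted p under 0.05. Polysome was higher than Input for 27 and lower for 55 of them in GEMIN5 cells (all genes 32.6% and 35%), and higher for 10 and lower for 54 in control cells (all genes 24.1% and 19.1%). The genes of the ribosomal proteins themselves went one way: of 75 tested 73 were higher and 0 lower in Input GEMIN5 (median 2.13), and 0 were called in polysomes.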

How the data were processed

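Poly(A) RNA of 15 HEK-293 libraries was sequenced with a stranded kit, per the labels' protocols. The deposited gene table holds raw counts per gene that the authors made with STAR 2.7.10a and featureCounts on GRCh38 (hg38), per the submitters' processing notes; no source used here states the counting options, strand use or annotation. The authors' deposited splicing table holds the percent spliced in of each event and, in a separate text field of another kind, the corrected read numbers behind it, made with a tool that no source used here names. Gene length in the count table, another deposited column, equals the whole gene span, so lengths here are GENCODE 29 transcript lengths.

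Low counts were removed by filterByExpr. The quasi-likelihood test of edgeR 4.0.16 (robust, R 4.3.3) then used TMM factors in 1 fit over the 15 libraries with 5 comparisons, and p-values were adjusted over 12197 genes by the Benjamini-Hochberg method. Splicing events with at least 10 reads in every library compared, 1 library or more at a PSI of at least 5 and 1 or more at or under 95, were tested with limma 3.58.1 on log2 odds after adding 0.5 reads. Spliced reads are given per 1000000 of the TMM-scaled library size. The 3' over 5' ratio needed 10 reads over both introns in every library, with 1 added to each, and junctions grouped by distance needed 40 reads over the Input libraries. Ratios over samples were compared by exact permutation with Python 3.11.15, numpy 2.4.6, pandas 2.3.3 and scipy 1.17.1. DESeq2 1.42.0, other scalings and filters, leaving out each library and a replicate block were tried, and the test was checked on simulated data. The p-values reflect the variation among these libraries alone, and counts limit the precision of low genes.

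The members and lists were chosen with earlier results of these data known. Named in Input were up to 2 called members per direction and role class with the largest change; in each other comparison up to 3 per direction; the highest and lowest member per length; all called events up to 12 in a comparison, otherwise the 6 with the largest PSI difference per direction; and up to 3 further factors per direction. Other members named were chosen after their values were seen.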

Additional observations from a re-analysis of the deposited data

Results flagged for a closer look

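In 16 of the 48 tested members the GEMIN5 effect differed between Polysome and Input (edgeR quasi-likelihood test of the difference, adjusted p under 0.05). By the same test 37.3% of all tested genes differed, so the count does not set the members apart. The difference, Polysome effect minus Input effect on the log2 scale, was 2.58 for LTV1, 1.68 for RRS1, 1.60 for DDX21, 1.42 for DKC1, 0.91 for WDR43, 0.76 for RIOK1, 0.71 for UTP4, 0.69 for BRIX1 and 0.57 for WDR12. It was -1.83 for NOP10, -1.78 for NHP2, -1.25 for NOP16, -0.94 for RRP12, -0.91 for IMP3, -0.59 for IMP4 and -0.55 for FBL. The DDX21 difference had an adjusted p of 0.056 with no filter on low counts, and FBL was not called in Input with transcript length offsets or without Input GEMIN5 replicate 2. The RNA mixture of the groups differed as well, with ribosomal protein genes at 55.15 to 59.94% of counts in Input GEMIN5 and 34.1 to 35.29% in Input control, and its part in these differences was not tested.

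Of 81 groups of 4 libraries examined, 3 held a library far from the others, and chance gives about 1 in 20 groups. DKC1 was at 130.3 CPM in 1 Input control library and at 122 to 123 CPM in the other 3. NCL was at 532 CPM in 1 Input control library and at 459.5 to 464 CPM in the others. RIOK1 was at 32.2 CPM in 1 Polysome control library and at 50.3 to 53.2 CPM in the others.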

How the results depend on the processing

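Scaling mattered most. With library size as the only scaling, 2 members were higher and 44 lower in Input GEMIN5 against Input control, 41 higher and 2 lower in Polysome against Input of GEMIN5 cells, 10 and 6 in control cells, and 42 and 1 for the difference. Over all 12197 genes the same counts were 605 and 9270, 10310 and 465, 6492 and 560, and 8412 and 387. The Input changes of NOP16, EBNA1BP2, IMP3, IMP4 and RRP12 then turned to -0.14, -0.94, -0.40, -0.64 and -0.30 (log2), and the NOP16 difference to 0.0578. This setting moves the median of all genes by construction, and in Input that median fell by 1.29. With transcript length offsets 5 members were higher in Input and 4 in control polysomes (IMP3, NIP7, PNO1 and RRP1B); EBNA1BP2 and NOP10 turned to -0.23 and -0.0135 in Input, NOP10 to 0.0725 in Polysome against Input of GEMIN5 cells and to 0.063 for the difference. The cause of these turns was not tested.

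Leaving out each library in turn gave 5 to 9 members higher and 14 to 25 lower in Input, 7 to 9 and 15 to 24 in Polysome against Input of GEMIN5 cells, 2 to 5 and 18 to 28 in control cells, 6 to 13 and 4 to 8 for the difference, and 0 and 0 to 3 in polysomes between GEMIN5 and control cells. The 5 higher in Input (IMP3, NHP2, NOP10, NOP16 and RRP12) and the 4 lower for the difference (NHP2, NOP10, NOP16 and RRP12) came without Input GEMIN5 replicate 2. The 3 lower in polysomes, and 5 higher in control polysomes (DDX21, MRTO4, NIP7, PNO1 and RRP1B), came without Polysome control replicate 1. The members' difference in the ratio of 3' over 5' spliced reads ranged from 1.45 to 1.59 in Input and from -0.24 to -0.01 in Polysome.

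Called events numbered 7 in Input and 9 in Polysome against Input of GEMIN5 cells with at least 20 reads, 33 and 32 with 1 read added, and 3 and 4 on the arcsine scale, which was chosen after seeing the data. Leaving out a library gave 10 to 16 and 8 to 17 of them: 10 in Input without Input GEMIN5 replicate 2, and in Polysome against Input 8 without Input GEMIN5 replicate 1, 13 without Input GEMIN5 replicate 2 and 11 without Polysome GEMIN5 replicate 3. Whether the replicate numbers pair the samples is not settled. Deviations from the group means (log2 CPM) of Input control and Polysome control correlated at -0.023, 0.280, -0.127 and 0.159 for replicates 1 to 4. For unlike numbers these correlations ran from -0.219 to 0.118. In GEMIN5 cells they were 0.0135, 0.0641 and -0.117 for replicates 1 to 3. A replicate block gave 6 higher and 19 lower in Input and 12 events in Polysome against Input of GEMIN5 cells. It changed no other count by more than 1.5 times. EBNA1BP2 in Input lost its call under DESeq2 (adjusted p = 0.0881), POLR1B with length offsets (0.066) and the DDX21 difference with no filter on low counts (0.056). Input GEMIN5 has 3 libraries, and low members such as LTV1 rest on 13 to 34 counts there.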
